A study of Homo sapiens with 3 samples.

Results

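The let-7 family is a group of microRNAs (miRs), short RNAs that guide Argonaute proteins to messenger RNAs and lower their translation and stability. It was examined here in extracellular vesicles (EVs) released by HepG2 cells, a human liver tumor cell line. The members were the rows of the deposited table whose name starts with hsa-let-7 and ends in -5p, together with hsa-miR-98-5p, a miR of the same family that carries another name. These were 9 of the 512 miR names in the table: let-7a, let-7b, let-7c, let-7d, let-7e, let-7f, let-7g and let-7i, each from the 5p arm of its precursor, and miR-98-5p. All 3 samples belonged to 1 group, wildtype HepG2 cells held in serum-free medium for 48 h, whose EVs were pelleted by ultracentrifugation. Each sample was a batch of EVs from which about 200 ng of RNA was made into a small RNA library. The study gave such EVs to mice with diet-induced steatohepatitis, and only the small RNA counts of the EVs are analysed here. HepG2 is 1 tumor line, no EVs of other cells and no HepG2 cell RNA were analysed, and nothing states that the batches came from separate cultures, so the spread between them may be technical.

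In animals, let-7 miRs accumulate as cells differentiate, and they hold down genes of growth and of the fetal state, such as the chromatin protein HMGA2, the IGF2BP RNA-binding proteins and RAS genes. LIN28A and LIN28B, RNA-binding proteins of embryonic cells, bind the terminal loop of let-7 precursors and block their maturation. LIN28B is made in fetal liver and is switched on again in many liver tumors, and its own messenger RNA is a let-7 target. Neither messenger RNAs nor proteins were measured in these libraries.

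All 9 members matched a mature sequence in RefSeq (GRCh38.p14). They are shown because all share 1 seed, bases 2 to 8, which sets the targets of a miR and is given in capitals, and because the remaining bases decide whether reads can be told apart.
hsa-let-7g-5p: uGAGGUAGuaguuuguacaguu
hsa-let-7i-5p: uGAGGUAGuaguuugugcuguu
hsa-let-7a-5p: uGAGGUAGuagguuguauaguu
hsa-let-7f-5p: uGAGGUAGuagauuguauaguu
hsa-let-7c-5p: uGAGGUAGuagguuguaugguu
hsa-let-7b-5p: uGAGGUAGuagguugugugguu
hsa-let-7e-5p: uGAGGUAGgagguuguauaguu
hsa-let-7d-5p: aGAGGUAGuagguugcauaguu
hsa-miR-98-5p: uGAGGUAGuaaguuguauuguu

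Each of these RNAs has 22 bases. With positions counted from 1 at the 5′ end and the base of let-7a first, let-7f differs from let-7a by G12A, let-7c by A19G and let-7e by U9G. let-7b carries A17G and A19G, and so lies 1 base from let-7c. The 4 pairs that differ by 1 base, out of 36 pairs in the family, thus join let-7a, let-7b, let-7c, let-7e and let-7f in 1 unit. let-7g (G12U and U18C) and let-7i (G12U, A17G, U18C and A19U) stand apart from that unit and share G12U and U18C with each other. let-7d differs from let-7a by U1A and U16C, and miR-98-5p by G11A and A19U. How reads that fit more than 1 member were counted is not given in the sources used here, so counts within the 1-base unit could have been exchanged and are uncertain as single values. A RefSeq sequence was found for 451 of the 512 names, and no other row among them carried this seed.

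The 3 libraries held 8704, 10834 and 7933 miR counts in batches 1, 2 and 3, and 205 of the 512 names had at least 2 counts over the batches, which is called present below. With 3 counts taken as the limit, a miR listed at 0 could still have held up to 0.0345%, 0.0277% or 0.0378% of counts in batch 1, 2 or 3. Batch 1 stood apart: the chi-square over the 64 miRs with at least 30 counts was 807 against batch 2 and 725 against batch 3, whereas batches 2 and 3 differed by 130. All 4 hepatocyte miRs on the marker list were present and took 15.8%, 16.6% and 16.1% of counts in batches 1, 2 and 3, which fits the labelled cell type. Most of this sum was miR-148a-3p, with 3169 counts, against 820 for miR-192-5p, 444 for miR-122-5p and 17 for miR-194-5p. The share of miR-122-5p was less even than the sum, at 2.48%, 0.905% and 1.64% in batches 1, 2 and 3. The 5 blood cell miRs in the table summed to 1 count and the 3 muscle miRs to 1 count. Endothelial miRs summed to 7, 2 and 2 counts (miR-126-5p at 0), and stromal and smooth muscle miRs to 10, 4 and 4 counts (2 of 5 at 0). Intervals given for a single batch are 95% Wilson intervals, and all intervals and limits cover counting error only, because PCR copies of a molecule were not told apart. A share of counts cannot tell fewer vesicles that carry a miR from fewer copies in each.

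The let-7 family held a small share of the EV miR counts, and let-7g was the member with the most counts in every batch. The 9 members summed to 109, 98 and 64 counts in batches 1, 2 and 3. These were 1.25% (1.04 to 1.51), 0.905% (0.743 to 1.10) and 0.807% (0.632 to 1.03) of all miR counts, a mean of 0.988% ± 0.234 (SD, n = 3). Taken as 1 miR, the family would rank 16th in the table by mean raw count. Of the 9 members, 7 were present and 6 had a count in every batch.

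let-7g, a broadly expressed member encoded by a single gene, had 49, 55 and 39 counts in batches 1, 2 and 3. Its shares of 0.563% (0.426 to 0.743), 0.508% (0.390 to 0.660) and 0.492% (0.360 to 0.671) lay within each other's intervals, with a mean of 0.521% ± 0.0374 (SD, n = 3) and rank 26. let-7a, the form with 3 precursors in the genome and the one closest to the founding worm let-7, had 23, 16 and 10 counts, or 0.264%, 0.148% and 0.126% of the batch totals (mean 0.179% ± 0.0743, SD, n = 3). No batch of let-7a reached the lowest let-7g share. let-7i, which shares 2 of its substitutions with let-7g, had 12, 10 and 9 counts (0.138%, 0.0923% and 0.113%, mean 0.115% ± 0.0228, SD, n = 3).

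let-7f, made from 2 precursors, had 12, 7 and 4 counts, at 0.138%, 0.0646% and 0.0504% of the batch totals (mean 0.0843% ± 0.0469, SD, n = 3). let-7c, encoded by a single gene with miR-99a, had 11, 6 and 1 counts, at 0.126%, 0.0554% and 0.0126% (mean 0.0648% ± 0.0575, SD, n = 3), so its SD was close to its mean. The ranges of let-7f, let-7c and let-7i overlapped one another. The remaining 4 members were at the edge of detection: let-7b had 1, 2 and 1 counts, let-7e had 2 counts in batch 2 only, let-7d had 1 count in batch 1 only, and miR-98-5p had 0 counts in every batch. None of these 4 exceeded the 3-count limit in any batch, and at this depth their order could not be shown.

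**Figure D1:**
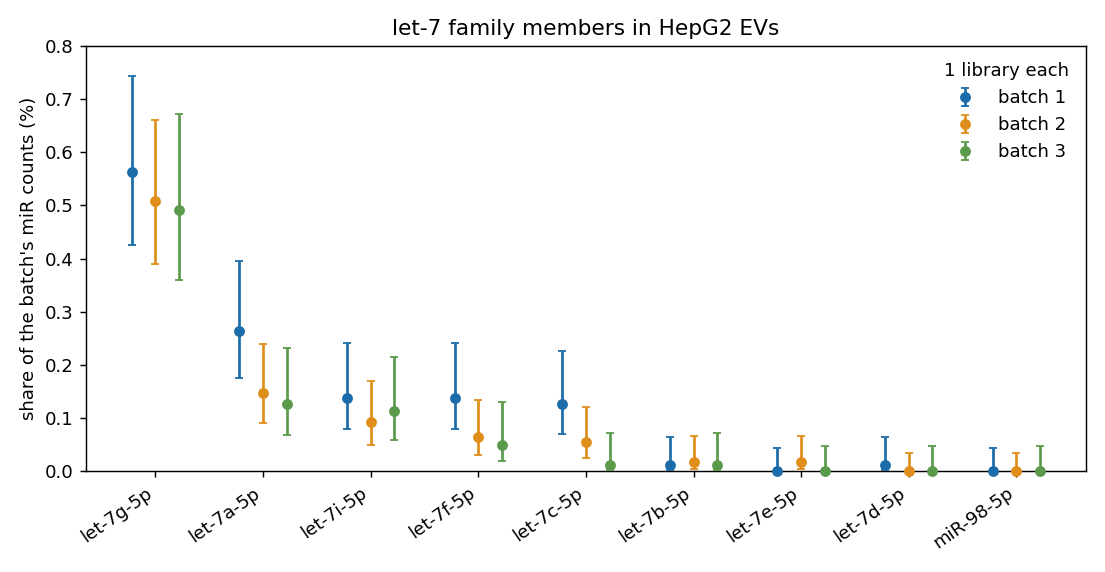
Share of the batch's miR counts (%, vertical axis) for the 9 family members (horizontal axis), with 1 point per batch and bars for the 95% Wilson interval of that single library. let-7g lies between 0.492% and 0.563%, above every point of let-7a, while let-7b, let-7e, let-7d and miR-98-5p lie at or near 0.

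Across the order of levels, let-7g exceeded let-7a by 0.341 ± 0.0371 percentage points (SD of the within-batch differences, n = 3) and was higher in 3 of 3 batches (two-sided exact sign-flip test, p = 0.25, the smallest that 3 batches allow). The next step was smaller. let-7a exceeded let-7i by 0.0648 ± 0.0575 points (exact p = 0.25) and was also higher in 3 of 3 batches, but by little more than 1 SD. let-7i and let-7f had equal counts in batch 1, and their difference of 0.0302 ± 0.0316 points (exact p = 0.5) was within its spread. The same held for let-7c minus let-7b, at 0.0506 ± 0.0587 points (exact p = 0.5). let-7f exceeded let-7c by 0.0195 ± 0.0159 points in 3 of 3 batches (exact p = 0.25). Over the 8 neighbouring pairs compared, the adjusted exact p was 0.667 or 1, so no step in the order passed a threshold that 3 batches could not reach. The pairs were formed by ranking the members on counts summed over these same batches. The direction of each difference was therefore taken from the data tested, and the order is a description.

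Within the family, let-7g held 45.0% (35.9 to 54.3), 56.1% (46.3 to 65.5) and 60.9% (48.7 to 71.9) of the family's counts in batches 1, 2 and 3, a mean of 54.0% ± 8.20 (SD, n = 3). let-7a held 17.7% ± 2.98, let-7i 11.8% ± 2.04, let-7f 8.13% ± 2.53, let-7c 5.93% ± 4.27 and let-7b 1.51% ± 0.564 (SD, n = 3 each). The members of the 1-base unit, whose single counts are uncertain, are better read as a sum. let-7a, let-7b, let-7c, let-7e and let-7f together had 47, 33 and 16 counts, which were 43.1% (34.2 to 52.5), 33.7% (25.1 to 43.5) and 25% (16 to 36.8) of the family, a mean of 33.9% ± 9.06 (SD, n = 3). let-7g alone was thus 1.04, 1.67 and 2.44 times the whole unit. let-7g and let-7i, which share 2 substitutions, together held 56.0%, 66.3% and 75% of the family. The lead of let-7g therefore did not rest on how reads were divided within the unit, although in batch 1 it was slight.

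**Figure D2:**
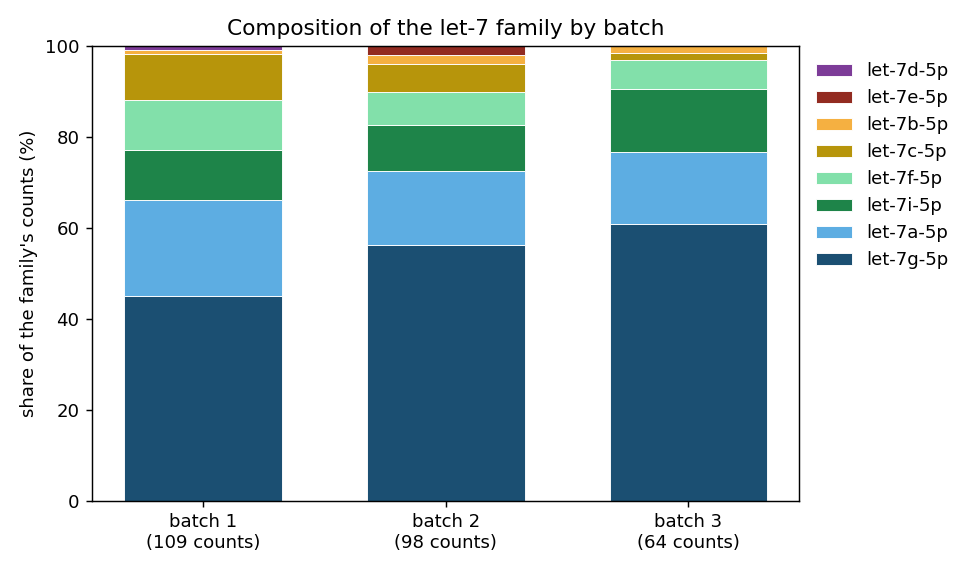
Composition of the let-7 family in each batch, as stacked shares of the family's counts (%, vertical axis), with the family's total count under each bar. let-7g is the lowest block of each bar, at 45.0%, 56.1% and 60.9%, and miR-98-5p is not drawn because it had 0 counts.

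The batches were then compared to ask which members differed between libraries by more than counting noise. The exact multinomial test, with batch totals as the null shares and Benjamini-Hochberg adjustment over all miRs with at least 30 counts, compares libraries and not conditions. Across the table it called 25 of 64 miRs (39.1%), of which 19 were highest in batch 1. None of the 3 members tested passed, and none reached an unadjusted p of 0.05. The adjusted p of this exact multinomial test was 0.822 for let-7g, 0.159 for let-7a and 0.714 for let-7i. The ratio of the batch 1 to the batch 3 share, with its exact counting interval, was 1.15 (0.737 to 1.79) for let-7g, 2.10 (0.960 to 4.93) for let-7a and 1.22 (0.470 to 3.27) for let-7i. The intervals of let-7a and let-7i were wide and left ratios of up to 4.93 and 3.27 possible.

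With a minimum of 10 counts the same exact test called 30 of 99 miRs (30.3%), and 1 of the 5 members tested. This was let-7c, with 11, 6 and 1 counts, a batch 1 to batch 3 ratio of 10.0 (1.46 to 432) and an adjusted exact p of 0.0470, which is just past the threshold. let-7f had a ratio of 2.73 (0.829 to 11.6) and an adjusted exact p of 0.235. The call of let-7c was lost with TMM-scaled totals (adjusted exact p = 0.156), with DESeq2 size factors (0.164), with totals without the 5 most abundant miRs (0.243), with no count minimum (0.141) and without batch 3 (0.276), and it was kept without batch 2 (0.0286). Its batch 3 value is a single count, and let-7c lies 1 base from let-7a.

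Of the 7 members present, 5 had their highest share in batch 1, as had 43 of the 64 miRs tested across the table. let-7a, let-7f and let-7c were highest in batch 1 with raw and with TMM-scaled totals alike. For let-7g the order depended on the totals: with TMM scaling, which corrects for a few very abundant miRs, its shares were 0.459%, 0.567% and 0.539%, lowest in batch 1. For let-7i they became 0.113%, 0.103% and 0.124%. The 1-base unit had a batch 1 to batch 3 ratio of 2.68 (1.49 to 5.06) with raw totals. Endothelial and stromal marker miRs were also highest in batch 1 (0.0804% against 0.0185% and 0.0252%, and 0.115% against 0.0369% and 0.0504%, in batches 2 and 3), and their part in the let-7 values was not tested.

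Summed over members, the family had a batch 1 to batch 3 ratio of 1.55 (1.13 to 2.15) and a batch 1 to batch 2 ratio of 1.38 (1.04 to 1.84) with raw totals. Across the 64 miRs tested, the median ratio of the highest to the lowest share was 1.58. With TMM-scaled totals the family shares were 1.02%, 1.01% and 0.885%, and with DESeq2 size factors 1.03%, 0.984% and 0.881%, so that batch 1 lay only 1.15 and 1.17 times above batch 3. With totals without the 5 most abundant miRs the shares were 2.40%, 2.45% and 2.24%, which put batch 2 highest and batch 1 at 1.07 times batch 3. The distance between batches 1 and 3 was thus smaller under all 3 alternatives than with raw totals.

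The family was set beside miR-30 and miR-26, the other families of near-identical miRs chosen for comparison, both abundant in many epithelial tissues. The let-7 family, with a mean of 0.988% ± 0.234, lay below the 5 miR-30 miRs at 1.35% ± 0.475 (SD, n = 3 each), by 0.363 ± 0.243 percentage points and in 3 of 3 batches (exact sign-flip p = 0.25). Against the 2 miR-26 miRs, at 1.24% ± 0.565 (SD, n = 3), it was lower in 2 of 3 batches, with a difference of -0.249 ± 0.331 points that was within its spread (exact p = 0.5, adjusted p = 0.5 for both families). The 3 families also differed in how far 1 member led. let-7g held 54.0% ± 8.20 of its family, against 78.9% ± 7.52 for miR-30d-5p and 94.4% ± 1.03 for miR-26a-5p (SD, n = 3 each), a description with no test. The batch 1 to batch 3 ratio was 1.55 for the let-7 family, against 1.86 (1.41 to 2.45) for miR-30 and 2.36 (1.75 to 3.21) for miR-26, with overlapping intervals.

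**Figure D3:**
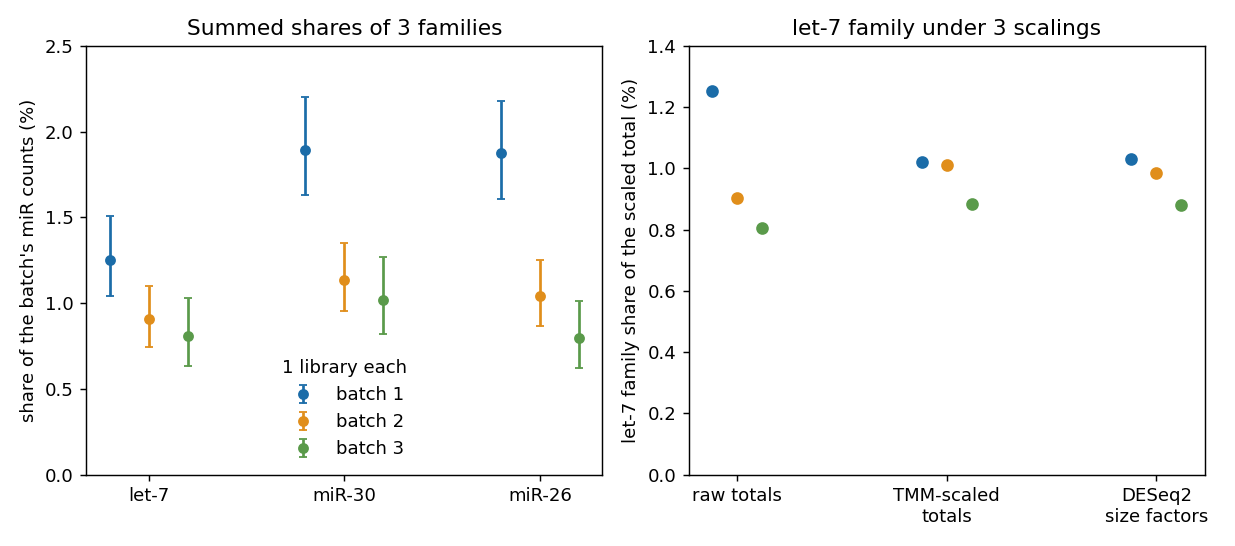
Left, summed share of all miR counts (%) for the let-7, miR-30 and miR-26 families, with 1 point per batch and 95% Wilson intervals. Right, share of the let-7 family (%) with raw totals, TMM-scaled totals and DESeq2 size factors, where the batch 1 point lies at 1.25%, 1.02% and 1.03% and the batches lie closer together under both scalings.

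Likeness of profile was measured as the Euclidean distance between log2 shares centred on their mean, over 3 batches and 61 other miRs with at least 30 counts. miR-24-3p was closest to the family sum, with a distance of 0.0331 and shares of 0.919%, 0.683% and 0.592%, followed by miR-186-5p (0.0890) and miR-92a-3p (0.105), where the median distance was 0.557. Closest to let-7g was miR-20a-5p, at 0.0618, with shares of 0.241%, 0.231% and 0.214%, followed by miR-574-3p (0.0625) and miR-423-3p (0.116), with a median of 0.501. With only 3 batches many miRs share such a profile, and the distances are a description.

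The members come from 12 precursors in GENCODE 29 on GRCh38, several of them transcribed together with other miRs. MIRLET7G lies at chr3:52268278-52268361 on the minus strand, in an intron of WDR82. MIRLET7I lies at chr12:62603686-62603769 on the plus strand, in an intron of the long noncoding RNA AC048341.1. MIRLET7A1 (chr9:94175957-94176036), MIRLET7F1 (chr9:94176347-94176433) and MIRLET7D (chr9:94178834-94178920) follow one another on the plus strand in an intron of the long noncoding RNA AL158152.2. MIRLET7A3 (chr22:46112749-46112822) and MIRLET7B (chr22:46113686-46113768) are a pair that overlaps exons of MIRLET7BHG. MIRLET7A2 (chr11:122146522-122146593, minus strand) lies in an intron of MIR100HG, MIRLET7C (chr21:16539828-16539911) in an intron of MIR99AHG and MIRLET7E (chr19:51692786-51692864) in an intron of SPACA6. MIRLET7F2 (chrX:53557192-53557274) lies on the minus strand in an intron of HUWE1. The leading member in EVs, let-7g, thus comes from a single locus, whereas let-7a, the next in level, comes from 3.

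In the let-7e cluster, the neighbouring miRs had more counts in EVs than let-7e. let-7e had 0, 2 and 0 counts in batches 1, 2 and 3, whereas miR-99b-5p, whose precursor ends 104 bases upstream of MIRLET7E, had 132, 83 and 54 counts. miR-125a-5p, from the precursor 389 bases downstream, had 20, 10 and 9 counts. The ratio to let-7e was 134.5 (exact counting interval 36.9 to 1116) for miR-99b-5p and 19.5 (5.05 to 167) for miR-125a-5p. These intervals do not cover how reads were divided within the 1-base unit, to which let-7e belongs. That whole unit had 96 counts over the batches, against 269 for miR-99b-5p and 39 for miR-125a-5p. As counted, the 3 miRs of this cluster ran from the edge of detection to 132 counts in a library.

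In the related cluster on chromosome 21, let-7c had 11, 6 and 1 counts in batches 1, 2 and 3, against 2, 4 and 1 counts for miR-99a-5p, 658 bases away, and 0 counts in each batch for miR-125b-5p. The ratio of miR-99a-5p to let-7c over the batches was 0.389 (exact counting interval 0.137 to 0.976), but it rested on batch 1: the mean log2 ratio, with 0.5 added to both counts, was -0.91 ± 1.15 (SD, n = 3) and -0.27 without batch 1, and the counts in batch 3 were equal. let-7a had 23, 16 and 10 counts, against 5, 3 and 0 counts for miR-100-5p, which lies 5635 bases from MIRLET7A2 on chromosome 11 (ratio of miR-100-5p to let-7a 0.163, interval 0.0668 to 0.348). Taking 3 counts over the batches as the limit for miR-125b-5p, let-7c was at least 6-fold higher and let-7a at least 16.3-fold higher, bounds that, like those below, leave out the counting error of the let-7 count itself. let-7a also comes from precursors on chromosomes 9 and 22, so its count cannot be assigned to the chromosome 11 cluster and the order within that cluster is not known. let-7f had 23 counts, at least 7.67-fold above miR-98-5p, its partner in the MIRLET7F2 cluster, but let-7f has a second precursor on chromosome 9. On that chromosome MIRLET7D lies 2400 bases from MIRLET7F1, and its product let-7d had 1 count.

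**Figure D4:**
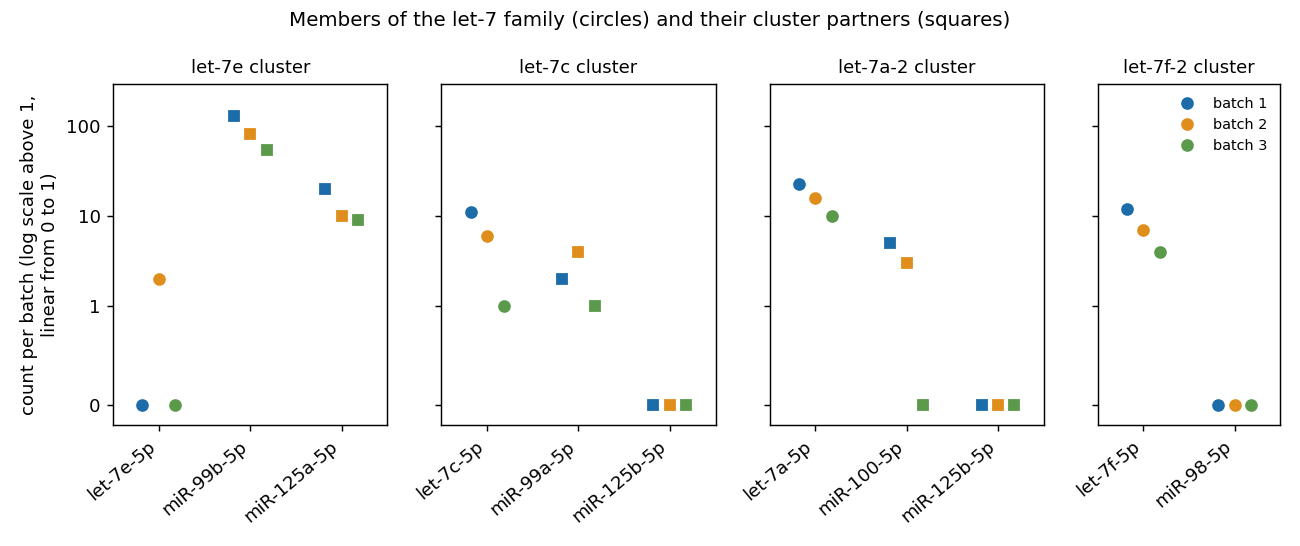
Counts per batch (vertical axis, log scale above 1 and linear from 0 to 1) for family members (circles) and the other miRs of their genomic clusters (squares), with 1 panel per cluster and 1 color per batch. In the let-7e cluster miR-99b-5p reaches 132, 83 and 54 counts where let-7e has 0, 2 and 0, and in the others the let-7 member lies above its partners in sum.

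The opposite, 3p arms of the precursors, usually the strand that is discarded, were not seen. The table had 9 rows for them (let-7a, let-7b, let-7c, let-7d, let-7e, let-7f-1, let-7f-2, let-7i and miR-98), and each was at 0 in all 3 batches. With 3 counts over the batches as the limit, the 5p arm was at least 16.3-fold higher for let-7a, 10.3-fold for let-7i, 7.67-fold for let-7f and 6-fold for let-7c. Of all names of 3p arms, 79 of 203 were present, against 205 of all 512 names. These include miRs whose 3p arm is the main one, such as miR-148a-3p. Whether the discarded strand of a miR at let-7 levels could be seen was not tested. None of the 9 rows was for let-7g, whose 3p arm was not analysed here.

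LIN28 proteins are known to contact the motif GGAG in the terminal loop, and the loops between the mature arms were read from RefSeq hairpins (GRCh38.p14) to see which members carry it. GGAG was searched on the RNA strand only and is in capitals. It was found in 8 of the 10 let-7 hairpins for which both arms are annotated, against 60 of all 739 such human hairpins (8.12%), whose loops are shorter (median 16 bases, against 35 for let-7g). The sequences shown are those of the 3 leading members, let-7g, let-7a (from 3 precursors) and let-7i, and of let-7e and let-7b, so that both hairpins without the motif, MIRLET7A3 and MIRLET7B, are included.
MIRLET7G loop: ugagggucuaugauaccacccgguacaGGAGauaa
MIRLET7A1 loop: uuagggucacacccaccacugGGAGauaa
MIRLET7A2 loop: uagaauuacaucaagGGAGauaa
MIRLET7I loop: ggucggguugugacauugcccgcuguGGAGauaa
MIRLET7E loop: gaGGAGgacacccaaGGAGauca
MIRLET7A3 loop: uggggcucugcccugcuaugggauaa
MIRLET7B loop: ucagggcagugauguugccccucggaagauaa

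In each of the 8 hairpins the motif, or its last copy in let-7e, ended 4 bases before the 3p arm. The leading member let-7g carries it, as does let-7i. let-7b, whose loop lacks it, had 4 counts over the batches. let-7a had 49 counts and comes from 1 precursor without the motif, MIRLET7A3, and from 2 with it. A loop with the motif was thus found in abundant members and in rare ones such as let-7e and let-7d. The motif is a match of letters, and binding by LIN28 proteins was not measured.

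The seed pairs with the letters CTACCTC in a target, and a following A gives the stronger 8-base form CTACCTCA. In the longest annotated 3′ UTR of each gene in GENCODE 29, on the sense strand, CTACCTC was found in 12 of 21 known let-7 targets (57.1%), against 1855 of all 19115 genes (9.7%). The UTRs of the known targets are longer, with a median of 3450 bases against 1104 for all genes, and the 2 shares are not corrected for this. The 21 genes were also listed because they are known let-7 targets. A higher share among them was thus built into the choice and is a description, not separate support. LIN28B and IGF2BP1 had 4 matches each, CDC25A, IGF1R and E2F2 had 2 each, and LIN28A, IGF2BP2 and IGF2BP3 had 1 each. Among UTRs of like length, 23.7% held at least 1 match for LIN28B and 29.9% for IGF2BP1. HMGA2 had no match in its longest UTR and up to 4 in 1 of its 7 transcripts.

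The study named other miRs, and no let-7 member, as having predicted targets among fibrosis genes, the collagens, MMPs, TIMPs and ACTA2. Its abstract and text draw these predictions from a set of top miRs large enough to include let-7g, 26th by counts here. The figure caption gives a smaller set for its pathway analysis. Whether let-7g itself was searched is not stated. The seed was counted in the same gene families. It was found in 9 of 72 such genes (12.5%, median UTR 1052 bases), close to the 9.7% of all genes. Collagens make up most of the 72 genes. All 9 with a match were collagens: COL1A1, COL1A2, COL3A1, COL4A4, COL4A6, COL5A2, COL8A1, COL24A1 and COL27A1. The 8-base form was found in COL1A2, COL3A1, COL4A6 and COL5A2, against 713 of all genes (3.73%). No MMP, no TIMP and not ACTA2 had a match in its longest UTR. Some of these UTRs are short, as in ACTA2 (149 bases, 0.951% of UTRs of like length with a match) and MMP9 (193 bases, 0.764%). Others are long, as in MMP16 (9452 bases, 42%). Whether collagens differ from the other genes in this was not tested. The sites with the 8-base form are shown for LIN28B and for the fibrillar collagens COL1A2 and COL3A1, with the match in capitals and coordinates on GRCh38, plus strand.
LIN28B site 1, chr6:105078813-105078838: cccggttgcaaagtCTACCTCAtgca
LIN28B site 2, chr6:105081422-105081447: tttacagcaaaaggCTACCTCAtagt
COL1A2 site, chr7:94430757-94430782: tccaaaggtttaaaCTACCTCAaaac
COL3A1 site, chr2:189012168-189012193: cctccctattttaaCTACCTCAactg

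Among UTRs of like length, 5.78% held at least 1 seed match for COL1A2 (839 bases) and 5.91% for COL3A1 (972 bases). Any member of the family could pair with these sites through the shared seed. let-7g had the most counts, but counts of different members do not compare as molecules do, so the most frequent form is not known. The sites are in human UTRs, whereas the study gave the EVs to mice, and mouse UTRs were not read. The study's own target search covered complete transcripts by another method, so its predictions and these seed matches are not like measures. Regulation of these genes was not measured in the EV libraries.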

How the data were processed

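Small RNA was measured in 3 batches of HepG2 EVs. The authors made NEBNext small RNA libraries for an Illumina MiniSeq and used miRTrace 1.0.1 for quality control. The values they deposited are raw counts for each miR in each batch, not normalized, with a further column of the authors' mean, an other value not used here. GRCh38 is named in the submitters' processing notes. An aligner or counter is not given in the sources used here. A second table with a subset of the same counts was not used.

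Shares of totals, intervals, the exact multinomial test by full enumeration (at least 30 counts, Benjamini-Hochberg over the whole table, threshold 0.05) and the exact sign-flip tests were computed in Python 3.11.15 with scipy 1.17.1. The multinomial test was tested on simulated counts that held counting noise only. Its behavior with PCR copies or with further spread between libraries was not tested. TMM factors (edgeR 4.0.16) and DESeq2 1.42.0 size factors in R 4.3.3 served as alternative scalings only, because 1 group gives no contrast. Log2 ratios of cluster partners used 0.5 added to both counts. Totals ran from 7933 to 10834 counts, and a let-7i share of 0.113% in batch 3 rests on 9 counts. Ligation favors some sequences, so counts of different members do not compare as molecules do.

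All 9 members, their 3p arms, cluster partners, miRs of the same seed, the miR-30 and miR-26 sums and the 3 miRs nearest in profile to the family sum and to let-7g were named by rule. Let-7f and let-7c at a minimum of 10 counts were followed up after their values were seen, as were the displayed target sites. The members and lists were chosen with earlier results of these data known. Hairpins and mature sequences come from RefSeq (GRCh38.p14), loci and UTRs from GENCODE 29. The hairpin of miR-98-5p is not reported here.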

Additional observations from a re-analysis of the deposited data

How the results depend on the processing

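let-7g remained the leading member and no member with at least 30 counts was called under the alternatives run. The mean family share was 0.972% with TMM-scaled totals, 0.965% with DESeq2 size factors and 2.36% once the 5 leading miRs were taken out of the totals, where batch 2 and not batch 1 was highest. It was 0.856% to 1.08% when 1 batch was left out. let-7g held 50.5% to 58.5% of the family with 1 batch left out. Members present numbered 6 to 7 with 1 batch left out and 2 with at least 10 counts in every batch. The number of miRs that differed between batches, 25 of 64, was 22 with either scaling, 15 of 59 without the 5 most abundant miRs, 18 of 316 with no count minimum and 30 of 99 with a minimum of 10, where 1 member (let-7c) was called. With 1 batch left out it ran from 4 (of 50, without batch 1) to 18, so batch 1 carried most of these differences. Adjusted p over the alternatives ran from 0.606 to 0.995 for let-7g, 0.118 to 0.783 for let-7a, 0.741 to 0.964 for let-7i and 0.195 to 0.921 for let-7f in the exact multinomial test. let-7a could not be tested without batch 1, let-7i with any batch left out and let-7c without batch 1, since too few counts remained. The let-7 minus miR-30 difference ran from -0.437 to -0.223 points and the let-7 minus miR-26 difference from -0.379 to -0.0629 points with 1 batch left out. The let-7e minus let-7d difference ran from -0.00574 to 0.00923 points with 1 batch left out and was reversed without batch 2, the only batch with let-7e. Summing members that differ by 1 base gave a unit of 33.9% of the family. The log2 ratio of miR-125b-5p to let-7a was -4.04 with 1 added in place of 0.5 (-5.0), and that of miR-98-5p to let-7f -3.01 (-3.91), because one side is at 0. With the 8-base form of the seed match, 8 of 21 known targets, 4 of 72 fibrosis genes and 713 of all genes had a site, and with any transcript 13, 10 and 2011 had a 7-base site. No paired analysis was possible because all samples belong to 1 group. Depth limits every member below let-7g: 4 of 9 had at most 2 counts in any batch.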
